A study of Mus musculus with 6 samples.

Results

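The genes described here encode the core and regulatory proteins of pre-mRNA splicing in mouse fetal liver. They were chosen by symbol, as the rows of a table of exon and intron counts that start with Srsf, Sfrs, Hnrnp, Sf3a, Sf3b, Snrp, Prpf or U2af, and 63 of the table's 15543 genes met this rule. By role they are 11 SR proteins, 17 hnRNP proteins, 3 U2AF subunits, 7 subunits of SF3a and SF3b, 12 snRNP proteins and 13 PRPF proteins. No symbol started with Sfrs. Fetal livers of C57BL/6J embryos gave 6 libraries of polyadenylated RNA. Libraries 1, 2 and 3 came from wild-type (WT) embryos. Libraries 4, 5 and 6 came from knockout (KO) embryos with both copies of the miR-144/451 locus deleted, which encodes microRNAs abundant in erythroid cells. The sources used here give neither the age of the embryos nor whether a library holds 1 embryo or several, so p-values measure only the spread between these libraries.

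The deletion was visible in the counts. Mir451 had 323, 446 and 418 counts in WT libraries 1 to 3 and 3, 2 and 4 counts in KO libraries 4 to 6. Mir144 had 51, 47 and 29 counts in WT and 1, 1 and 0 in KO. Each library was therefore on the side of its label.

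Splicing removes introns from pre-mRNA in a spliceosome built from small nuclear ribonucleoproteins (snRNPs), each holding a small RNA and, in most of them, a ring of Sm proteins. U2AF binds the 3' end of the intron, SF3a and SF3b hold the U2 snRNP on the branch point, and many PRPF proteins belong to the U4/U6.U5 complex that joins later and leads to catalysis. SR proteins and hnRNP proteins bind the pre-mRNA and favour or repress the use of nearby splice sites, and many of them control their own mRNA by alternative splicing or intron retention. Terminal erythroid maturation is known for programmed intron retention, including in splicing factor transcripts.

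MicroRNAs pair through their seed (bases 2 to 8, in capitals below) with sites mostly in 3' untranslated regions (3' UTRs). The 2 microRNAs of the deleted locus are shown because their sites were searched in every gene, with sequences from RefSeq on build GRCm38.p6.
miR-451a: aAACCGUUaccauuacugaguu
miR-144-3p: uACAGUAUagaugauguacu
The match to the seed of miR-451a, AACGGTT, was found in the longest annotated 3' UTR of 0 of the 63 splicing factor genes. Of the 14872 genes of the table with a 3' UTR, 281 (1.89%) held it. The match to the seed of miR-144-3p, ATACTGT, was found in 11 of the 63 (17.5%), against 1853 of 14872 genes (12.5%). Only the strand of the transcript was searched, and a match is a description of the sequence, not evidence of binding.

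The sites of 4 of those 11 genes are shown with the seed match in capitals. These 4 genes are named below for their p-value or for their exon level within a role. Each window is 30 bases of the mRNA from the GENCODE M21 transcripts (GRCm38). The first 3 are 8mer sites, in which an A follows the match, and the last is a 7mer.
Hnrnpu: tctcccacaaATACTGTattactagtgtgc
Sf3b1: tagcagtcagATACTGTattggcttaagtg
Prpf39: tatcatacaaATACTGTaatccttaataaa
Hnrnpul2: aagcgtgctcATACTGTgtcttttctattg
The Hnrnpu match starts at base 847 of a 3' UTR of 5011 bases, and that of Sf3b1 at base 995 of 2165. The Prpf39 match lies near the end of its 3' UTR, at base 1872 of 1906. The 11 genes hold 12 sites, and 7 of the genes have an 8mer.

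The tables hold raw counts. Exon counts summed to between 22294694 and 40500055 per library, and intron counts to between 6650619 and 10977015. Splicing factor genes took 1.86% to 2.31% of exon counts and 1.02% to 1.21% of intron counts. Markers of both main cell types of fetal liver were present: all 20 hepatocyte markers and 9 of 10 erythroid markers were in the table, and none of these was at 0. The libraries differed in hepatocyte signal within each genotype. The summed hepatocyte markers (in CPM, counts relative to the scaled library size) were 17336, 70140 and 10487 in WT libraries 1 to 3 and 15456, 24160 and 54422 in KO libraries 4 to 6, so WT 2 and KO 6 stood highest. The summed erythroid markers were 23713 to 30362 CPM in WT and 16610 to 19792 CPM in KO, without overlap. All 9 erythroid markers had a lower mean in KO, and 1 of them fell past the threshold. In bulk RNA, fewer cells of a type and less RNA per cell cannot be told apart.

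The first comparison asked whether mRNA of splicing factors differed between KO and WT liver, from exon counts. Srsf9, an SR protein gene, was the only one of 62 tested splicing factor genes to pass an adjusted p of 0.05 (edgeR, Benjamini-Hochberg over all 12032 tested genes). It rose in KO, and 1 of 62 (1.61%) stands beside 1.59% of all tested genes that rose. None of the 62 fell, beside 1.14% of all tested genes, and at an unadjusted p of 0.05 edgeR took 1 gene higher and 1 lower, beside 7.25% and 8.51% of all genes. DESeq2 also called Srsf9 alone of the 62, beside 8.44% of all tested genes called in either direction. limma-voom called no splicing factor gene, beside 2.79% of all tested genes. Srsf12 was not tested, because it had at most 6 exon counts in any library.

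The splicing factor genes lay closer to no change than most genes did. Their log2 changes (KO minus WT) ran from -0.36 to 0.46 with a median of -0.04, where the median of all tested genes was -0.03. Below 0 were 40 of 62 (64.5%), beside 55.6% of all tested genes. This count rested on single libraries: it was 22 of 62 without WT library 3, with a median of 0.03, and 51 of 62 without WT library 2, with a median of -0.15. The absolute log2 change was above 0.25 for 5 of 62 (8.06%) and for 32.3% of all tested genes, and above 0.5 for 0 of 62 and 9.82% of all. The 95% interval of the change lay within 0.5 log2 units of 0 for 46 of 62 (74.2%), against 38.4% of all tested genes, and within 1 log2 unit for 61 of 62 (98.4%), against 74.4%. Their median standard error was 0.130, against 0.151 for all tested genes, and smaller errors give narrower intervals. Only Snrpn, chosen for mention after its values were seen, had an interval beyond 1 log2 unit in exons (log2 change 0.07, interval -1.06 to 1.21). Its exon counts were 318, 353 and 484 in WT and 971, 611 and 275 in KO, and these groups overlap.

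**Figure D1:**
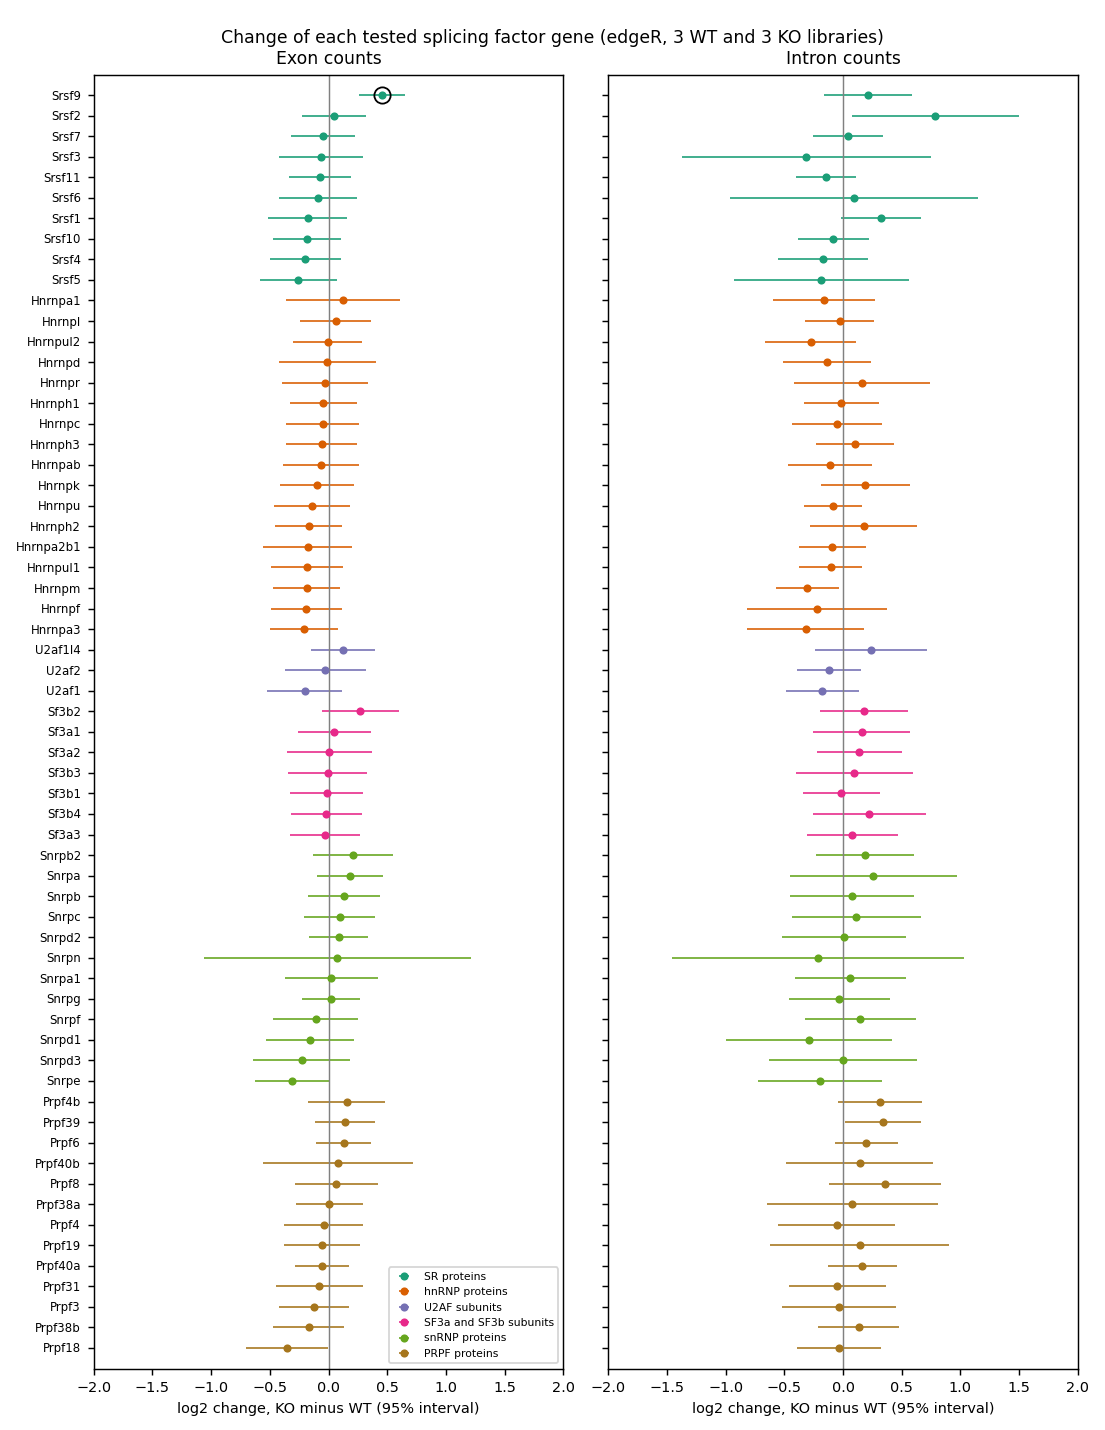
Log2 change of each tested splicing factor gene, KO minus WT, with its 95% interval, from exon counts (left) and intron counts (right); colours mark the 6 roles. Srsf9 (ring, exon log2 change 0.46) passed an adjusted p of 0.05 in edgeR, and in introns Srsf2 lies farthest from 0 at 0.79 with a wide interval.

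Among SR proteins, which carry an RNA recognition motif and a domain rich in arginine and serine, the changes were small apart from Srsf9. Srsf9 lies on chromosome 5 (chr5:115327177-115333080, plus strand, GRCm38), where no other annotated gene overlaps it. Its exon level was 61.7, 59.6 and 66.9 CPM in WT and 87.5, 90.2 and 80.8 CPM in KO. Every KO library was above every WT library, and Srsf9 was the only one of the 62 genes without overlap between the groups (1.61%, beside 21.8% of all tested genes in either direction). The mean rose from 62.7 ± 3.75 to 86.2 ± 4.82 CPM (SD over 3 libraries in each group). The log2 change was 0.46 (SE 0.08, 95% interval 0.26 to 0.65, edgeR adjusted p 0.0441). The adjusted p lies close to the threshold: it was 0.0501 with limma-voom and from 0.0714 to 0.194 when WT library 1 or 3 or any 1 KO library was left out, while the log2 change stayed between 0.41 and 0.51 in the 13 alternatives run. The 3' UTR of Srsf9 holds no match to either seed.

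The other tested SR genes did not pass the threshold. Srsf1, a factor that binds exonic enhancers, had 972, 790 and 1087 CPM in WT and 873, 825 and 817 CPM in KO (log2 change -0.18, edgeR adjusted p 0.676). The WT values enclose those of KO. Srsf2, another enhancer-binding factor, had 591, 565 and 664 CPM in WT and 687, 605 and 586 CPM in KO (log2 change 0.05, edgeR adjusted p 0.972). Srsf5 had 666, 566 and 776 CPM in WT and 572, 536 and 573 CPM in KO, with a log2 change of -0.26 (adjusted p 0.441, edgeR). Its highest KO value lies above the lowest WT value. Of the 10 tested SR genes 8 had a change below 0, with a median of -0.08, and without WT library 3 only 4 of 10 did.

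The hnRNP proteins package nascent RNA and include repressors of splicing, and none of 17 passed the threshold in exons. At an unadjusted p of 0.05 edgeR took none of them either, in either direction. Hnrnpa2b1, which encodes hnRNP A2 and B1, had 2845, 2167 and 2876 CPM in WT and 2374, 2401 and 2196 CPM in KO (log2 change -0.18, edgeR adjusted p 0.731). Hnrnpu, which encodes a nuclear matrix protein that binds RNA and DNA, had 1193, 968 and 1232 CPM in WT and 1084, 1042 and 954 CPM in KO (log2 change -0.14, edgeR adjusted p 0.762). In both genes WT 2 was far below WT 1 and WT 3. Hnrnpa3, related to hnRNP A1, had 573, 470 and 616 CPM in WT and 485, 473 and 477 CPM in KO (log2 change -0.21, edgeR adjusted p 0.507). Of the 17 genes 15 had a change below 0, with a median of -0.07. That count was 13 with DESeq2's size factors, 17 without WT library 2 and 9 without WT library 3, so it moved with single libraries.

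The authors' larger gene table lists 5 further genes with these symbol prefixes that have no row among the exon and intron counts, and they are not counted among the 63. Hnrnpa0, an hnRNP A/B family gene with a single exon block in the annotation (chr13:58125879-58128556, minus strand, GRCm38), had gene counts of 5643, 5826 and 3704 in WT libraries and of 11813, 10970 and 9484 in KO libraries. After scaling it rose, with a log2 change of 0.60 (SE 0.08, adjusted p 0.0228, edgeR over the 15105 tested genes of that table, of which 1.83% rose). No fit with another method or a left-out library was run for Hnrnpa0. Its 3' UTR holds no match to the seeds of miR-451a or miR-144-3p. Sf3b5, also with 1 exon block, had a log2 change of 0.08, Sfrs18 of -0.03 and Hnrnpa1l2-ps of 0.27 (adjusted p 0.812, 0.984 and 0.680, edgeR), and Snrp1c-ps2 was at 0 counts in every library.

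The U2AF subunits, which recognise the polypyrimidine tract and the AG of the 3' splice site, did not pass the threshold, and at an unadjusted p of 0.05 edgeR took 0 of 3. U2af2, the large subunit, had 363, 283 and 379 CPM in WT and 365, 344 and 295 CPM in KO. Its log2 change was -0.03 with a 95% interval from -0.38 to 0.32. U2af1, the small subunit, had 140, 116 and 155 CPM in WT and 133, 117 and 108 CPM in KO (log2 change -0.20, edgeR adjusted p 0.575). The groups overlap in both genes.

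None of the 7 SF3a and SF3b genes passed the threshold in exons, also not at an unadjusted p of 0.05 (edgeR). Sf3b1, the large subunit that contacts the branch region and a frequent target of mutation in myelodysplasia, had 686, 518 and 657 CPM in WT and 613, 630 and 598 CPM in KO. Its log2 change was -0.02 with a 95% interval from -0.33 to 0.30. Sf3b3, a scaffold subunit, had 448, 354 and 467 CPM in WT and 464, 418 and 379 CPM in KO, a log2 change of -0.01. Sf3b2, a subunit that binds near the branch point, stood apart from these with 394, 305 and 388 CPM in WT and 468, 455 and 388 CPM in KO (log2 change 0.27 with SE 0.14, edgeR adjusted p 0.422). KO 6 was level with WT 1 and WT 3, and the groups overlap. Without WT library 2 and KO library 6 the adjusted p of Sf3b2 was 0.0448 in edgeR, with a log2 change of 0.26. That fit called 10.2% of all tested genes. Over the 13 alternatives run (edgeR, DESeq2 or limma-voom) the adjusted p of Sf3b2 ran from 0.0146 to 0.625, and 2 passed the threshold.

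Of the 12 snRNP protein genes none passed the threshold in exons, and edgeR took none at an unadjusted p of 0.05. The 2 furthest above 0 by p encode proteins that bind the U1 and U2 small RNAs. Snrpa, the A protein of the U1 snRNP, had 77.2, 73.4 and 85.3 CPM in WT and 100.4, 90.7 and 76.8 CPM in KO (log2 change 0.18, edgeR adjusted p 0.563). Snrpb2, the B'' protein of the U2 snRNP, had 66.1, 50.9 and 71.3 CPM in WT and 75.7, 76.7 and 65.2 CPM in KO (log2 change 0.21, edgeR adjusted p 0.601). In both genes KO 6 lies inside the WT range. For 3 genes of the Sm core the values are as follows. Snrpb, which encodes SmB, had 252, 209 and 267 CPM in WT and 285, 276 and 235 CPM in KO, a log2 change of 0.13 (SE 0.13). Snrpd3, which encodes SmD3, had 179, 120 and 177 CPM in WT and 146, 140 and 119 CPM in KO, a log2 change of -0.23 (SE 0.17). Snrpe, which encodes SmE, had 139, 102 and 136 CPM in WT and 103, 106 and 95.05 CPM in KO. Its mean was 126 ± 20.5 CPM in WT and 101 ± 5.49 CPM in KO (log2 change -0.31 with SE 0.13, edgeR adjusted p 0.320). WT 2 alone among WT libraries was at the KO level. Without it the adjusted p of Snrpe was 0.0167 in edgeR, in a fit that called 10.5% of all tested genes. Over the 13 alternatives run (edgeR, DESeq2 or limma-voom) the adjusted p of Snrpe ran from 0.0167 to 0.736, and 3 passed the threshold.

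Of 13 PRPF genes none passed the threshold, and edgeR took 1 lower and 0 higher at an unadjusted p of 0.05. That gene was Prpf18, a second-step factor, with 185, 128 and 169 CPM in WT and 125, 134 and 117 CPM in KO. Its mean was 161 ± 29.0 CPM in WT and 126 ± 8.56 CPM in KO (log2 change -0.36 with SE 0.14, 95% interval -0.70 to -0.01, edgeR adjusted p 0.304). As in Snrpe, WT 2 lay among the KO values. Without it the adjusted p of Prpf18 was 0.0204 in edgeR, in a fit that called 10.5% of all tested genes. Over the 13 alternatives run (edgeR, DESeq2 or limma-voom) the adjusted p of Prpf18 ran from 0.0204 to 0.724, and 3 passed the threshold. Prpf8, the large protein at the catalytic core, had 762, 604 and 797 CPM in WT and 835, 751 and 674 CPM in KO (log2 change 0.06, SE 0.15). Prpf4b, a kinase of the U4/U6.U5 complex, had 281, 229 and 317 CPM in WT and 333, 292 and 295 CPM in KO (log2 change 0.15, SE 0.14).

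**Figure D2:**
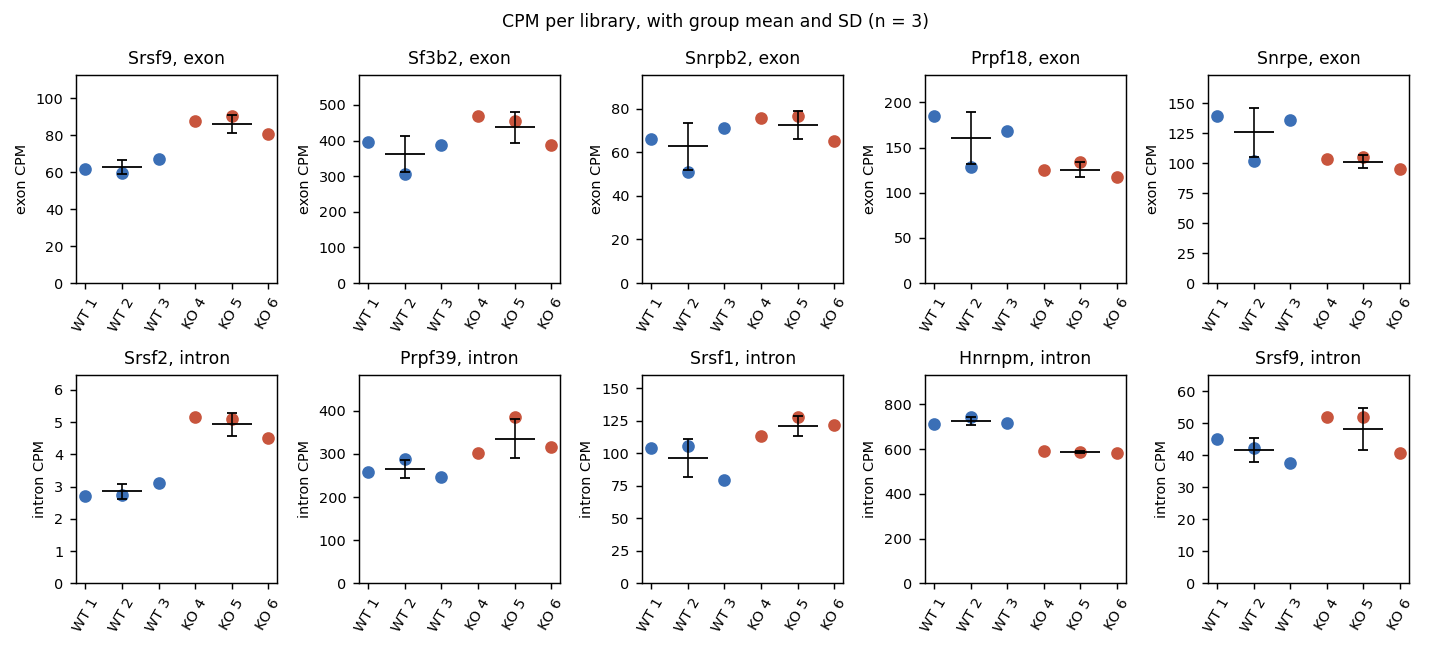
CPM of selected splicing factor genes in each library (points, WT blue and KO red) with group mean and SD (n = 3); the top row shows exon counts and the bottom row intron counts. Srsf9 exons separate the groups at 59.6 to 66.9 against 80.8 to 90.2 CPM, while Prpf18 and Snrpe overlap through WT 2, and Hnrnpm introns separate at 712 to 746 against 583 to 591 CPM.

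None of the genes with a miR-144-3p match passed the threshold in exons, at an adjusted p from edgeR. These 11 genes had a median exon log2 change of -0.06 (range -0.19 to 0.14), with 2 above 0. The 51 tested genes without one had a median of -0.04, with 20 above 0 and Srsf9 past the threshold. Of the genes whose sites are shown above, the exon log2 changes were -0.14 in Hnrnpu, -0.02 in Sf3b1, 0.14 in Prpf39 and -0.01 in Hnrnpul2.

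Other splicing genes were counted in 4 lists, and none of their tested members passed the threshold in exons. Of a list of 49 tested spliceosome components outside the symbol rule, edgeR called 0 in exons, and at an unadjusted p of 0.05 it took 4 lower and 0 higher (beside 8.51% and 7.25% of all tested genes), with a median log2 change of -0.02. The smallest p among these belonged to Bud31, a spliceosome component, at 131 ± 17.6 CPM in WT and 94.4 ± 0.990 CPM in KO (log2 change -0.47, edgeR adjusted p 0.0852), followed by Rbmx2 (log2 change -0.58, edgeR adjusted p 0.171). None of 8 exon junction complex genes, 6 splicing kinase genes or 33 other splicing regulators passed the threshold. At an unadjusted p of 0.05 edgeR took 0 of the exon junction complex genes. It took 1 kinase gene higher and 1 lower, and 1 regulator higher and 3 lower, to be set beside the same shares of all tested genes. Clk3, a kinase that phosphorylates SR proteins, had 323 ± 69.3 CPM in WT and 223 ± 19.7 CPM in KO (log2 change -0.53, edgeR adjusted p 0.199). Srpk2, another SR protein kinase, had 30.8 ± 1.19 CPM in WT and 37.5 ± 2.61 CPM in KO (log2 change 0.28, edgeR adjusted p 0.206). Among the regulators Qk had 220 ± 13.4 CPM in WT and 176 ± 4.49 CPM in KO (log2 change -0.32, edgeR adjusted p 0.109), and Celf2 had 51.1 ± 3.51 and 38.9 ± 3.82 CPM (log2 change -0.39, edgeR adjusted p 0.127).

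Libraries of 1 genotype differed among themselves across most splicing factor genes. The lowest exon CPM was in WT 2 for 44 of the 62 genes and in KO 6 for 16. The highest was in WT 3 for 25, in KO 4 for 18 and in WT 1 for 15. Relative to each gene's mean over the libraries, the median log2 deviation of the 62 genes was 0.09, -0.19 and 0.17 in WT libraries 1 to 3 and 0.09, -0.01 and -0.13 in KO libraries 4 to 6. In WT 2, 61 of 62 genes were below their own mean, and in KO 6, 58 of 62. WT 2 and KO 6 are the libraries with the highest hepatocyte markers, and the part of hepatocyte content in this pattern was not tested. The counts by library were not made over all tested genes, so the pattern may not be particular to splicing factor genes. Without WT 2 and KO 6, edgeR called Sf3b2 and Srsf9 higher and Snrpd3, Prpf18 and Snrpe lower, 5 of 62, where 10.2% of all tested genes were called. With the mean level of the hepatocyte markers as covariate it called Snrpb2, Sf3b2 and Srsf9 higher and Prpf18 and Snrpe lower, where 18.8% of all tested genes were called. Srsf9 rose in both of these fits.

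**Figure D3:**
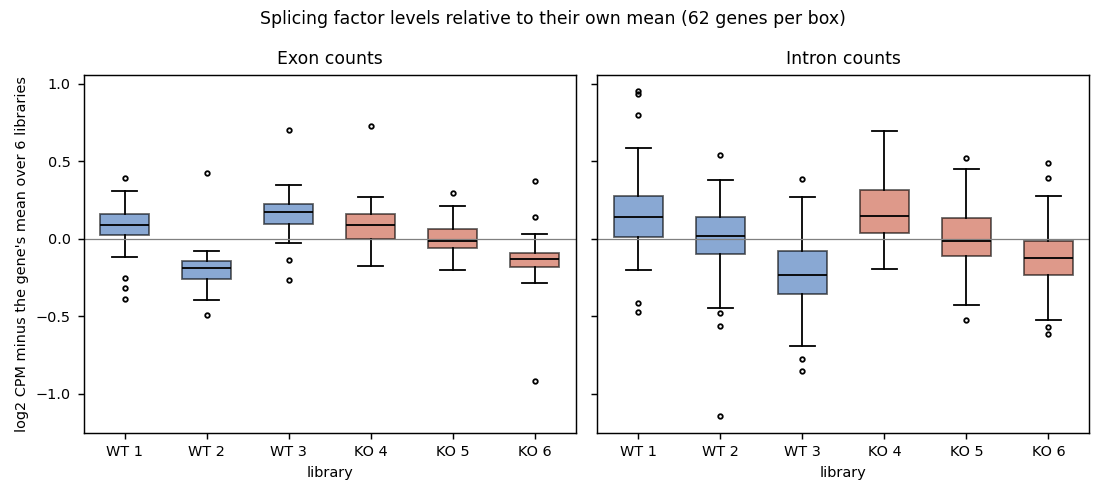
Log2 CPM of 62 splicing factor genes minus each gene's mean over the 6 libraries, as a box per library (median and quartiles, with genes beyond the whiskers as circles) for exon counts (left) and intron counts (right). In exons WT 2 and KO 6 lie lowest, with medians of -0.19 and -0.13, and in introns WT 3 lies lowest at -0.23.

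The second comparison asked whether intron counts, which stand for unspliced RNA or retained introns, differed between KO and WT. None of the 62 splicing factor genes passed the threshold in introns, where 0.237% of all 11803 tested genes rose and 0.483% fell (edgeR). At an unadjusted p of 0.05 edgeR took 2 genes higher and 1 lower, beside 5.39% and 5.45% of all genes. DESeq2 and limma-voom also called 0 of 62, beside 2.88% and 0.678% of all tested genes. At an unadjusted p of 0.05 they took 0 higher and 1 lower, and 2 higher and 1 lower. The median log2 change was 0.03 for these genes and 0.02 for all tested genes, and 33 of 62 (53.2%) were above 0, beside 53% of all. Single libraries turned this median too. It was -0.09 without WT library 3 (21 of 62 above 0), -0.08 without KO library 4 (25 of 62) and 0.10 without WT library 1 (43 of 62). The absolute log2 change was above 0.5 for 1 gene, Srsf2, and for 14.1% of all tested genes. The 95% interval lay within 1 log2 unit of 0 for 58 of 62 (93.5%), against 66% of all tested genes, and within 0.5 for 21 of 62 (33.9%), against 17.1%. The median standard error was 0.179 for these genes, against 0.227 for all tested genes, and smaller errors give narrower intervals. The groups did not overlap for 8 of 62 genes (12.9%), beside 17.5% of all tested genes. Of these, 5 were higher in KO (beside 9.92% of all) and 3 lower (beside 7.57%).

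The genes with the smallest p in introns were Srsf2, Prpf39 and Srsf1 above 0 and Hnrnpm below 0. Hnrnpm encodes a regulator of alternative exons, and its intron level was 712, 746 and 717 CPM in WT and 591, 589 and 583 CPM in KO. All KO libraries were below all WT libraries, at 725 ± 18.3 and 588 ± 4.42 CPM (log2 change -0.30 with SE 0.11, 95% interval -0.57 to -0.04, edgeR adjusted p 0.388). Its exon level was 539 ± 55.7 CPM in WT and 473 ± 37.4 CPM in KO, a log2 change of -0.19. Hnrnpm (chr17:33646233-33686860, minus strand, GRCm38) overlaps March2 on the same strand.

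Srsf2 had very few intron counts, 18, 19 and 22 in WT and 59, 37 and 38 in KO. In intron CPM these were 2.70, 2.75 and 3.12 in WT and 5.18, 5.11 and 4.51 in KO. All KO libraries were above all WT libraries, with a log2 change of 0.79 (SE 0.31, 95% interval 0.07 to 1.498, edgeR adjusted p 0.410). Srsf2 (chr11:116849901-116853094, minus strand, GRCm38) overlaps Mettl23 and Mfsd11 on the opposite strand. The sources used here do not give the strand setting of the counts, so reads of these genes cannot be told apart from those of Srsf2.

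Prpf39, a U1 snRNP-associated protein, had 258, 288 and 247 intron CPM in WT and 303, 387 and 315 in KO. The groups do not overlap (264 ± 21.1 and 335 ± 45.1 CPM, log2 change 0.34 with SE 0.14, edgeR adjusted p 0.426). Prpf39 overlaps Fkbp3 on the opposite strand and holds 1 small nucleolar RNA gene. Srsf1 had 104, 106 and 79.8 intron CPM in WT and 113, 128 and 122 in KO (log2 change 0.33, edgeR adjusted p 0.486). Prpf4b had 129, 136 and 98.7 intron CPM in WT and 167, 147 and 138 in KO (log2 change 0.32, edgeR adjusted p 0.537). The KO values of both genes lie above all WT values, although none of these genes passed the threshold. Below 0, Srsf11 had 211, 213 and 206 intron CPM in WT and 177, 201 and 194 in KO (log2 change -0.14, edgeR adjusted p 0.754), again without overlap. The remaining 2 genes without overlap were Prpf6 (log2 change 0.20), named after its values were seen, and Hnrnpu (log2 change -0.09). In the annotation Srsf1 overlaps Gm11508, Prpf4b overlaps Gm36839 and Hnrnpu overlaps Cox20, all on the opposite strand. Prpf6 overlaps Zfp512b and Samd10 on the opposite strand, and Srsf11 overlaps Gm43362 on the same strand. Reads of these neighbours can enter the intron counts.

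By role, the median intron changes lay on both sides of 0. Median intron log2 changes were -0.02 for SR genes, -0.09 for hnRNP genes, -0.12 for U2AF genes, 0.14 for SF3a and SF3b genes, 0.04 for snRNP genes and 0.14 for PRPF genes. Above 0 were 6 of 7 SF3a and SF3b genes and 9 of 13 PRPF genes, and below 0 were 13 of 17 hnRNP genes. These counts were 4 of 7, 7 of 13 and 15 of 17 without WT library 3, in which 51 of the 62 genes were below their own mean intron level. Below 0 were 9 of 17 hnRNP genes without WT library 1. Of the snRNP genes 8 of 12 were above 0, and this count was 3 without KO library 4 (median -0.17), 4 without WT library 3, 11 without WT library 1 and 6 with DESeq2's size factors. In the lists outside the symbol rule, edgeR called 0 spliceosome, exon junction complex, kinase and other regulator genes in introns, with 1 higher and 1 lower at an unadjusted p of 0.05 in all, both among the other regulators. They were Mbnl2 (96.6 ± 16.6 CPM in WT and 137 ± 26.7 CPM in KO, log2 change 0.51, edgeR adjusted p 0.380) and Celf2 (37.6 ± 3.87 and 26.9 ± 1.39 CPM, log2 change -0.48, edgeR adjusted p 0.316).

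The third comparison set the exonic change against the intronic change of the same gene in 1 fit, which asks whether mRNA and unspliced RNA moved differently. In edgeR 0 of 62 splicing factor genes passed the threshold, and 0% of 11100 tested genes did in either direction. At an unadjusted p of 0.05 it took 0 of the 62 higher and 1 lower, beside 1.67% and 1.5% of all tested genes. DESeq2 called 0 of 62, beside 0.351% of all tested genes, with 0 higher and 1 lower at an unadjusted p of 0.05. The 1 gene was Srsf2, with an exonic minus intronic log2 change of -0.73 (SE 0.19, 95% interval -1.19 to -0.28, edgeR adjusted p 0.914). Next came Srsf1 at -0.49 (95% interval -1.09 to 0.10), Hnrnph2 at -0.32 and Prpf38b at -0.28. On the other side were Srsf9 at 0.26 (95% interval -0.14 to 0.66), Hnrnpul2 at 0.26, Hnrnpa1 at 0.30 and Hnrnpm at 0.12.

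Srsf9, the gene that rose in exons, therefore did not differ past the threshold between exons and introns. Its intron level was 45.1, 42.2 and 37.7 CPM in WT and 52.1, 51.9 and 40.6 CPM in KO (log2 change 0.21 with SE 0.16, edgeR adjusted p 0.754). KO 6 lies among the WT values. The median exonic minus intronic change was -0.05 for splicing factor genes and -0.06 for all tested genes, and 38 of 62 (61.3%) were below 0, beside 60.2% of all. The 95% interval lay within 1 log2 unit of 0 for 56 of 62 (90.3%), against 62.5% of all tested genes. Here too the median standard error was smaller, at 0.214 against 0.269 for all tested genes. With 1 scaling factor per library for exon and intron columns together, the medians of the exonic minus intronic change were 0.09 and 0.08, so the sign rests on the scaling. It also rests on single libraries: the medians were 0.15 for splicing factor genes (49 of 62 above 0) and -0.04 for all tested genes without WT library 3, and -0.15 and -0.02 without WT library 2.

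Intron to exon count ratios were computed per library. Over all genes of the table the ratio of summed counts was 0.204, 0.236 and 0.305 in WT and 0.271, 0.205 and 0.220 in KO. The groups overlap, at 0.248 ± 0.0518 and 0.232 ± 0.0347 (SD, n = 3 each), and an exact two-sided permutation test gave p = 0.7, where 0.1 is the smallest p this design allows. Summed over the splicing factor genes the ratio was 0.117, 0.135 and 0.135 in WT and 0.142, 0.0996 and 0.115 in KO, with means of 0.129 ± 0.0105 and 0.119 ± 0.0214. KO 4 was the highest and KO 5 the lowest, so the WT values lie between KO values. As a share of the ratio over all genes it was 0.574, 0.570 and 0.443 in WT and 0.524, 0.486 and 0.524 in KO. Splicing factor genes thus had a lower summed ratio than the whole table in every library, and their share was lowest in WT 3, the library with the highest ratio over all genes.

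**Figure D4:**
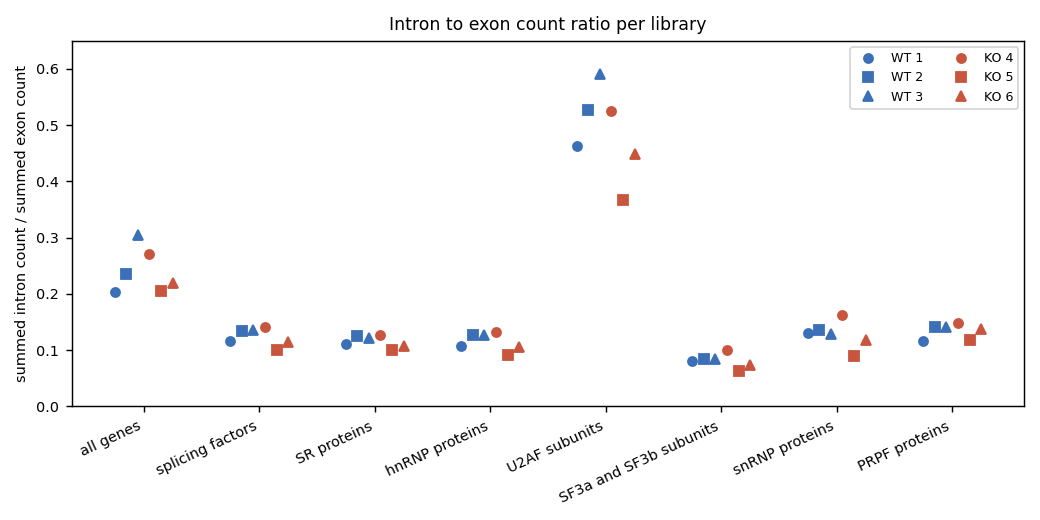
Summed intron count divided by summed exon count in each library (WT blue, KO red), for all genes, the splicing factor genes and the 6 roles. U2AF subunits lie highest, at 0.367 to 0.591, raised by U2af1 with a mean ratio of 1.29. KO 5 is lowest in every role but PRPF, and the genotypes overlap in every group.

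In every library the U2AF subunits had the highest summed ratio of the 6 roles, 0.462, 0.527 and 0.591 in WT and 0.525, 0.367 and 0.448 in KO. This level was raised by 1 gene: the mean ratio was 1.29 in U2af1, 0.204 in U2af2 and 0.175 in U2af1l4. The SF3a and SF3b genes had the lowest summed ratio, 0.0806, 0.0838 and 0.0848 in WT and 0.101, 0.0632 and 0.0735 in KO. The snRNP genes had 0.131, 0.136 and 0.129 in WT and 0.163, 0.0905 and 0.117 in KO. In the last 2 groups the WT libraries were nearly equal while the KO libraries spread to both sides of them. Over single genes, KO 4 had the highest ratio for 30 of 62 and WT 3 for 17, and KO 5 had the lowest for 43 of 62. The same counts were not made over all tested genes.

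The ratio differed far more between genes than between libraries. U2af1 (chr17:31647081-31658892, minus strand, GRCm38, with no overlapping gene) had more intron than exon counts in every library, with ratios of 1.19, 1.37 and 1.49 in WT and 1.45, 1.07 and 1.18 in KO. Its intron counts were 5024, 5096 and 5000 in WT and 8194, 4779 and 4793 in KO. Hnrnph3, an hnRNP H family gene, had 1.11, 1.03 and 1.10 in WT and 1.33, 0.882 and 1.10 in KO, and it overlaps Rufy2 on the opposite strand. Prpf39 had 0.627, 0.827 and 0.850 in WT and 0.812, 0.758 and 0.776 in KO. Prpf40b, a U1-associated protein with low exon counts, had 0.889, 0.596 and 2.21 in WT and 1.05, 0.865 and 1.04 in KO, a 3.70-fold range set by WT 3. With Srsf4 and Srsf7, named after their values were seen, these 4 genes were the 6 with the highest ratio in all 6 libraries.

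At the other end, Srsf2 had ratios of 0.00101, 0.00105 and 0.00154 in WT and 0.00202, 0.00160 and 0.00172 in KO. All KO values are above all WT values, which is the intron difference given above. Srsf6, another SR protein gene, had 0.0136, 0.00779 and 0.00554 in WT and 0.0148, 0.00781 and 0.00623 in KO. WT 1 and KO 4 stand apart from the other 4 libraries in Srsf6, and in Srsf3, named after its values were seen, at 0.0764 in WT 1 and 0.0750 in KO 4 against 0.0255 to 0.0564 elsewhere. Srsf5 had 0.0128 to 0.0271 and Prpf8 0.0136 to 0.0219.

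**Figure D5:**
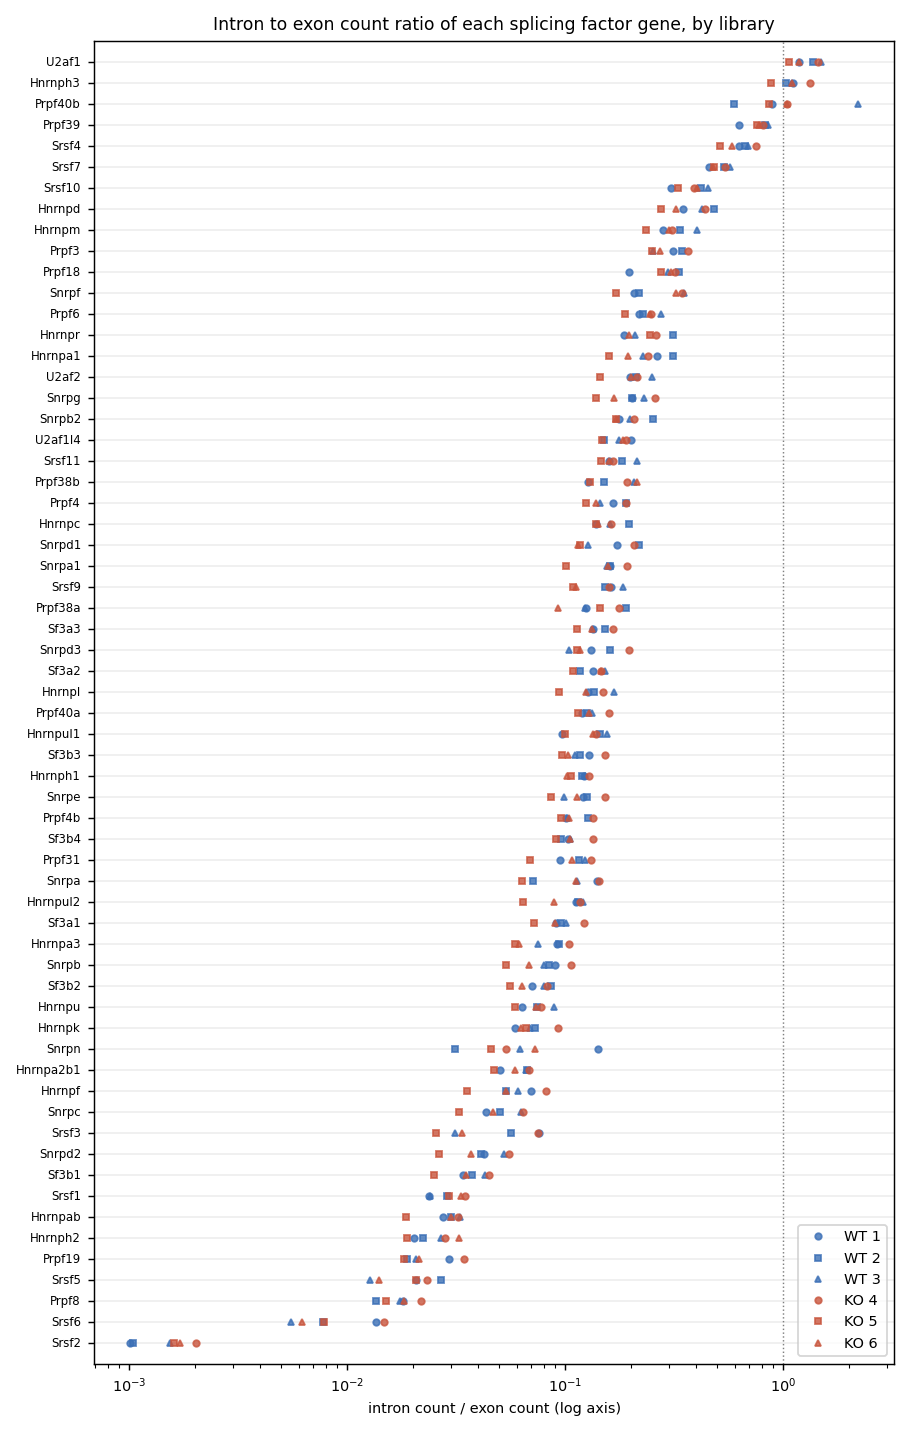
Intron count divided by exon count (log axis) for each of 62 splicing factor genes in the 6 libraries, ordered by the mean log2 ratio; the dotted line marks equal counts. The genes span from about 0.00101 in Srsf2 to 2.21 in Prpf40b, and the libraries of each gene lie close together by comparison.

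Introns are longer than exons in most of these genes, so the counts were also set per kilobase of the coding transcripts of GENCODE M21, whose introns may differ from those the authors counted. Exon levels per length were highest for Hnrnpa2b1 at a mean of 1017 CPM per kb, followed by Srsf5 at 371 and Srsf2 at 308, and among tested genes lowest for Prpf40b at 2.28. Per kilobase, intron counts were 39.4% of exon counts in Hnrnph3, 28.4% in Srsf7, 27.0% in Srsf10, 21.1% in Prpf40b, 19.6% in Srsf1, 19.1% in Hnrnpr, 17.1% in Hnrnpa1, 16.1% in Hnrnpd and 14.4% in Prpf39, on average over the libraries, in descending order. U2af1 had 13.4%. The lowest among tested genes were Snrpn at 0.0941% and Srsf2 at 0.251%. These values depend on the annotated lengths: Snrpn has 156 kb of intron and overlaps Snurf on the same strand, and Hnrnpr has 21.7 kb of exon. U2af1 therefore leads by count ratio but not by density, and Srsf1, with only 0.825 kb of intron, is among the densest although its count ratio is low. Of the 63 genes 32 overlap another annotated gene, small nucleolar RNA genes aside, and 18 overlap a protein-coding one, so reads of a neighbour can enter these intron counts.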

How the data were processed

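The deposited values used were raw counts by the authors: exon counts and intron counts per gene symbol for 15543 genes, and a gene table of 34542 genes without globin and mitochondrial genes, per the file headers and names. Exon counts equal the gene table's for all 15543 genes. STAR and HTSeq are named without versions, and builds NCBIM37 and mm10 are listed, in the submitters' processing notes. The gene table is labelled NCBIM37, while the exon and intron counts carry no build label. Strand setting and intron definition were not given in the sources used here.

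Groups and replicate numbers came from the sample titles. Gene table totals were 24659978 to 44700229 counts per library. The sources used here record no molecular identifiers, so counts are of reads. The 95% intervals of log2 changes come from the edgeR fits and include the spread between libraries. Libraries of a group differed beyond sampling noise (chi-square per degree of freedom 17.6 to 187), and each was kept as 1 replicate.

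KO was compared with WT by edgeR 4.0.16 in R 4.3.3 (quasi-likelihood F test, TMM scaling, filterByExpr with minimum count 10 and minimum total 15, all 6 libraries, no covariate), with Benjamini-Hochberg adjustment over all tested genes and a threshold of 0.05. Exonic and intronic changes were compared in 1 fit with a term per sample, where the region by genotype interaction was tested. TMM factors were computed for exon and for intron columns on their own. CPM uses TMM-scaled library sizes. Tests are two-sided. The procedure was tested on simulated data with the same spread for every gene, which does not cover the differences between libraries found here. DESeq2 1.42.0, limma 3.58.1 (voom), other scaling, no filter, the gene table, a hepatocyte covariate and left-out libraries were alternatives. Gene models were GENCODE M21 (GRCm38), matched by the same symbol for 63 of 63 genes, and the longest annotated 3' UTR was searched.

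The splicing factor genes and all lists were chosen with earlier results of these data known. Named genes are those past the threshold, the 4 smallest p in each direction per comparison, the 2 highest in exon CPM per role, the 4 highest and 4 lowest intron to exon ratios, and the 2 smallest p per further list.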

Additional observations from a re-analysis of the deposited data

How the results depend on the processing

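In exons the main count was 1 splicing factor gene higher and 0 lower in edgeR. Leaving out 1 library gave 0 to 1 higher and 0 to 4 lower. Without WT library 1 or 3 or any 1 KO library there was none, where only 0.0163% to 0.29% of all tested genes were called. Without WT library 2 there were 1 higher and 4 lower (Prpf18, Hnrnpa3, Snrpe and Hnrnph2), where 383 and 887 of all tested genes were called. Without WT library 2 and KO library 6 together there were 2 higher and 3 lower, with the hepatocyte covariate 3 higher and 2 lower, and with limma-voom 0 higher. The cause was not tested. DESeq2, DESeq2's size factors, no filter and the gene table left the count at 1 higher and 0 lower, each time Srsf9, where 3.08% to 8.44% of all tested genes were called. The gene table holds the same counts for these genes, so it adds no separate data. Prpf18 had adjusted p-values of 0.0250 without both libraries and 0.0425 with the covariate, and Snrpe 0.0198 and 0.0291, in edgeR.

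In introns and in the exonic against intronic comparison, 0 of 62 genes were called in every alternative run, although over all genes DESeq2 called 37 higher and 2 lower in the latter, and edgeR 44 and 106 without WT library 3. The log2 difference in the ratio over all genes, -0.09, turned to 0.071 without WT library 3 (exact permutation p 0.8), and ran from -0.22 to 0.071 over the left-out libraries. That of the splicing factor genes, -0.13, ran from -0.26 to -0.01. No paired analysis was possible because no replicate number is shared, WT being numbered 1 to 3 and KO 4 to 6. The median standard error of the splicing factor genes was 0.130 in exons, 0.179 in introns and 0.214 for the exonic minus intronic change.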

Other observations

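WT library 1 and KO library 4 had the highest 2 intron CPM values for 27 of the 62 splicing factor genes, and this pair held the highest 2 exon CPM values for 0 of 62. In intron CPM, Srsf3 had 223 and 178 in these libraries and 67.1 to 133 in the other 4, Srsf6 had 28.5 and 26.5 against 9.07 to 17.1, and Prpf19 had 34.0 and 33.2 against 16.7 to 22.2. The genes and the pair of libraries were chosen after the values were seen, and nothing in the labels sets this pair apart.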
